A study of Mus musculus with 5 samples.

Results

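Type 2 conventional dendritic cells (cDC2) of the mouse kidney were followed through unilateral ureteric obstruction (UUO), a surgical block of urine flow from 1 kidney, and through its reversal. A droplet cell counted as cDC2 when it held at least 2 UMIs (unique molecular identifiers, each marking 1 captured transcript) of the lectin gene Cd209a and at least 50 UMIs over H2-Aa, H2-Ab1, H2-Eb1 and Cd74, the MHC class II (MHC II) genes. It also had to hold 0 UMIs of genes that mark other cells, among them Xcr1, Clec9a, Ccr7 and Cd3e. These thresholds took in 361 of 13823 kept cells, kept cells being those with 200 or more genes and no more than 50% of UMIs from mitochondrial transcripts. Of the 361, sham surgery (day 0) gave 17, UUO day 2 gave 52, UUO day 7 gave 236 and reversed UUO gave 56.

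All mice were 8-week-old C57/BL6 animals, and no allele or drug is given in the labels. The reversed kidneys were taken 7 days after the obstruction was removed, on experimental day 14. The tissue was dissociated by a cold digestion and sorted for live cells on DAPI alone, with no marker of dendritic cells. Each time point is 1 droplet library pooled from 3 mice, so time points carry no replicate error, no test between them was possible, and intervals cover counting error only. A further sample holds 768 wells on 8 plates prepared by Smart-seq2, with all time points mixed.

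Conventional dendritic cells take up antigen, load peptides onto MHC molecules and present them to T cells. Type 1 cells (cDC1) depend on the transcription factor Irf8 and are specialised for cross-presentation to CD8 T cells, whereas type 2 cells depend on Irf4 and mainly prime CD4 T cells. In kidney, both lie among far more numerous resident macrophages that share MHC II and several lectins with them. The ligand Flt3l, through the receptor Flt3, sustains both dendritic types, whereas macrophages depend on Csf1r.

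The class II chaperone subunit gene H2-DMb2 was among the 4 markers proposed for these cells, and its close copy H2-DMb1 was not, although both genes lie side by side on chromosome 17 and encode beta chains of H2-DM. H2-DM exchanges the invariant chain peptide for antigenic peptide on class II molecules. The bases around the Y box of 4 class II genes are shown because the copies shared this element while their transcripts were distributed differently over cell types. The box was searched as TGATTGG on both strands in the 250 bases before each RefSeq gene start (GRCm38.p6), and capitals mark it; each sequence is read along its gene's strand.
H2-DMb2: agtcacttagTGATTGGactgacttaa
H2-DMb1: attcactcagTGATTGGtctgacctgc
H2-Ob: tcttcgctctTGATTGGttaacagtgt
H2-Aa: gagaattttcTGATTGGttctggcgag

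The H2-DMb2 stretch is chr17:34145147-34145173 on the plus strand, 92 bases before the gene start and within an intron of a longer transcript model. The H2-DMb1 stretch is chr17:34153118-34153144 on the plus strand, 63 bases before the RefSeq start and inside an annotated UTR of another transcript. H2-Ob lies at chr17:34238836-34238862 on the plus strand and H2-Aa at chr17:34287857-34287883 on the minus strand, both upstream of their gene models. The motif also occurred before H2-Oa, H2-Eb1 and H2-Eb2, and 2375 of 32851 promoters (7.23%) held it on either strand. Over the box and 40 bases on each side, H2-DMb2 and H2-DMb1 were identical at 77 of 87 bases (88.5%). The motif was not in the windows of H2-DMa, Cd209a, Cd209d, Mgl2, Ccl17, Ffar2 or Irf4. A match is a description of letters only.

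Cells of the cDC2 gate made up 0.432% of kept sham cells (exact Clopper-Pearson 95% interval 0.252 to 0.691), 2.36% at day 2 (1.76 to 3.08), 5.31% at day 7 (4.67 to 6.01) and 1.73% after reversal (1.31 to 2.24). The day 7 interval lay above the other 3 and the sham interval below them. Against MHC II-high cells alone, meaning all kept cells with at least 50 MHC II UMIs, the order was different. The share was 27.9% in sham (17 of 61; 17.1 to 40.8), 14.1% at day 2 (10.7 to 18.1), 8.74% at day 7 (7.70 to 9.87) and 8.32% after reversal (6.35 to 10.7). On this denominator sham stood above day 7 and reversed UUO, whose intervals overlapped. Day 2 stood above day 7, but the size of this gap depended on the Cd209a threshold. With 1 UMI or more the shares of MHC II-high cells were 17.4% at day 2 (13.7 to 21.7) and 16.7% at day 7 (15.3 to 18.1). These 2 intervals overlapped. Kept cells of other types set the first denominator: the median mitochondrial share of all kept sham cells was 33.7%, and their part in the shares was not tested. At most 20% mitochondrial UMIs, the share of kept cells was 2.31% in sham and 3.30% at day 2.

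**Figure D1:**
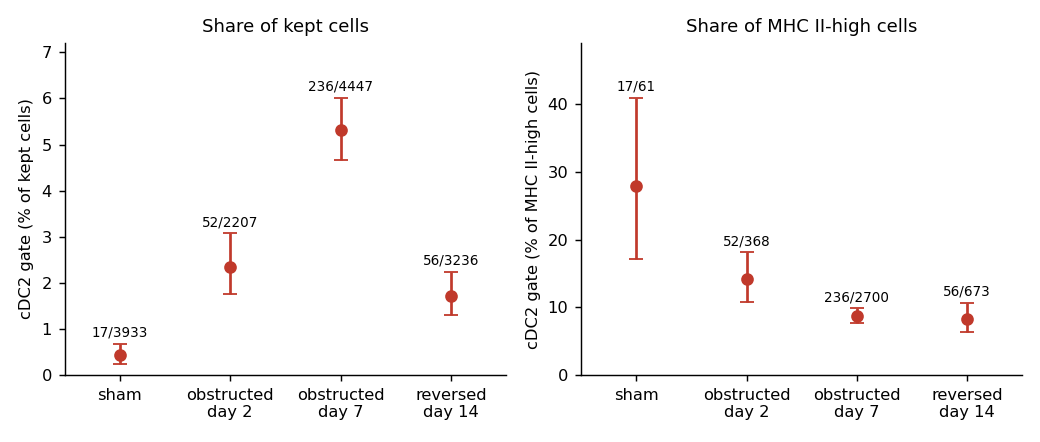
Cells of the cDC2 gate as a percentage of kept cells (left) and of MHC II-high cells (right) in each droplet library, with the counts above the bars; bars are exact 95% binomial intervals, which cover counting error only. The share of kept cells was highest at day 7 (5.31%), while the share of MHC II-high cells was highest in sham (27.9%).

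Levels throughout are counts per 1000000 UMIs of the summed cells (CPM) unless another scale is named. Their median depth was 5017 UMIs in sham, 9785 at day 2, 8865.5 at day 7 and 8542.5 after reversal, and their median mitochondrial share lay between 2.61% and 4.18%. Summed over cells the libraries gave 92249, 551406, 2077974 and 520713 UMIs, so 3 UMIs, the count that a value of 0 still allows, equal 32.5 CPM in sham and 1.44 CPM at day 7. Median Cd209a was 9 to 10 UMIs in every library, and the 4 MHC II genes together had medians of 530 to 749.5 UMIs. Between 16 and 39 cell barcodes were shared by each pair of libraries, and for 0 of them were both cells in the gate.

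The values at the edge of the rule were as follows, pooled over libraries and given as description. The 39 members with exactly 2 Cd209a UMIs had H2-DMb2 at 461 CPM, Clec10a at 109 CPM and Ccl17 at 341 CPM. The 253 cells just outside, with 1 Cd209a UMI, had H2-DMb2 at 97.7 CPM, Clec10a at 69.4 CPM and Ccl17 at 365 CPM. For Ccl17 the edge differed between libraries: inside and outside it was 0 and 1961 CPM at day 2 (4 and 12 cells), 190 and 170 CPM at day 7 and 1530 and 938 CPM after reversal. At the MHC II edge, the 7 members with 50 to 99 MHC II UMIs had H2-DMb2 at 47.5 CPM, and the 7 cells with at least 2 Cd209a UMIs but fewer than 50 MHC II UMIs had it at 69.9 CPM. Another 66 cells met the Cd209a and MHC II thresholds but held a gene that the rule excludes, and their Ccl17 level was 3941 CPM. Their H2-DMb2, at 590 CPM, and Clec10a, at 360 CPM, were close to the levels of the members described next, whereas their Ccl17 was above them.

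Of the 3 proposed markers that the rule did not use, H2-DMb2 and Clec10a were present in every library, and Ccl17 in all but sham. Because they were proposed with these data in view, their levels are description without a test, and their fitted fold changes and their places in lists and counts below are given in the same way. H2-DMb2 (chr17:34143307-34151555, GRCm38, plus strand) stood at 585 CPM in sham, 588 at day 2, 550 at day 7 and 453 after reversal. It was 122 to 148 CPM in cDC1 cells, 14.9 to 79.8 CPM in macrophages and 18.1 to 29.7 CPM in monocytes, each defined by a gate on other genes, so the cDC2 values did not overlap those of any other gate. Clec10a (chr11:70156197-70170834), a galactose-binding lectin, was 466, 408, 425 and 350 CPM in the same library order and at most 71.7 CPM in the other gates. Sham cDC1 and monocyte gates held 2 and 4 cells and are left out of every class comparison here.

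H2-DMb2 was found in 70.6% to 79.2% of gated cells and Clec10a in 69.6% to 82.4%. With every cell thinned to 2000 UMIs these shares were 48.1% to 62.5% and 44.9% to 66.7%. Neither gene was detected in 0 sham, 5 day 2, 16 day 7 and 3 reversed cells. Mgl2 (chr11:70130329-70137550), the neighbouring galactose-lectin copy of Clec10a, was higher still, with 824, 637, 1339 and 1008 CPM. Reads of such close copies (Clec10a and Mgl2, H2-DMb1 and H2-DMb2, Cd209a and Cd209d) may be shared between them by the counting, so their separate levels are uncertain.

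**Figure D2:**
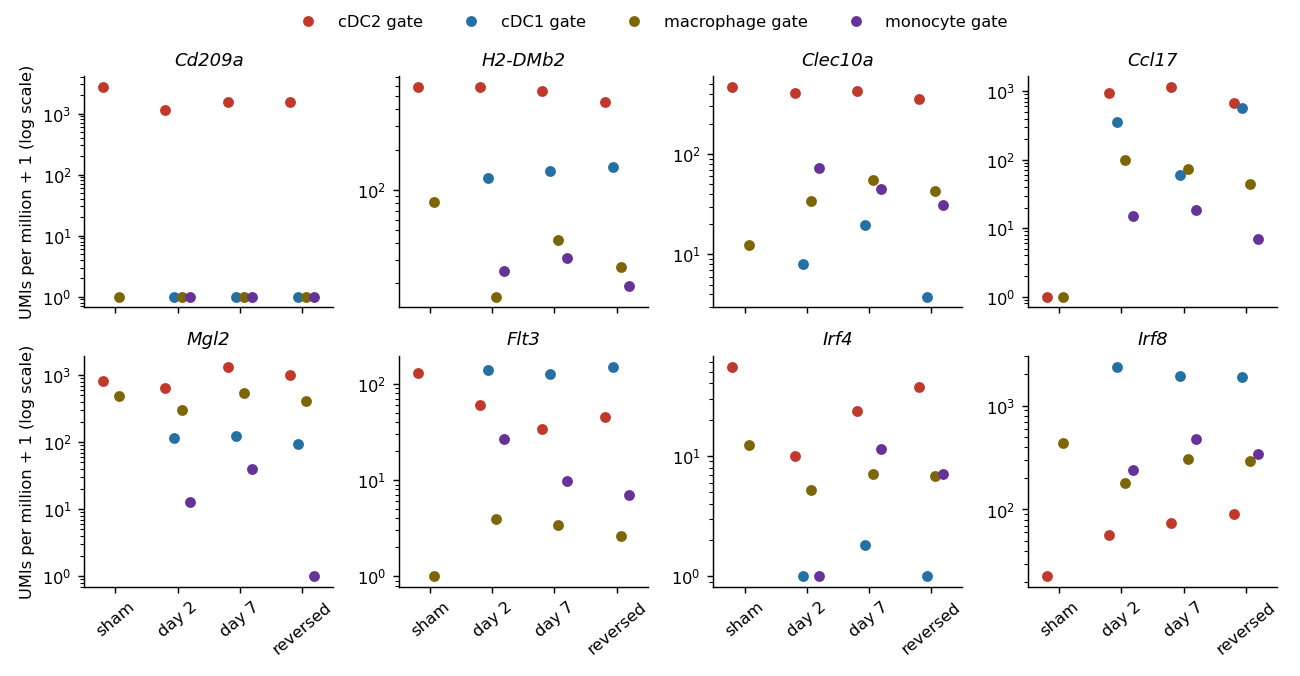
Levels of the 4 proposed markers and of Mgl2, Flt3, Irf4 and Irf8 by library in the cDC2, cDC1, macrophage and monocyte gates, in CPM plus 1 on a log axis whose range differs between panels; each point is 1 library with at least 10 cells. H2-DMb2 and Clec10a lie above the other gates in each library, Ccl17 is at 0 in sham, Irf8 is lowest in cDC2 cells, and Cd209a is at 0 outside the gate by the rule.

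Ccl17 (chr8:94810453-94812036), a chemokine that attracts Ccr4-bearing T cells, behaved differently from the other markers. Its level was 0 in sham, 934 CPM at day 2, 1156 CPM at day 7 and 678 CPM after reversal. Over the sham floor of 3 UMIs this was at least 28.7-fold higher at day 2 and at least 20.8-fold higher after reversal. It was detected in 0 of 17 sham cells, the shallowest of the 4 libraries, which allows a share of up to 17.6% of cells with a UMI, in 15 of 52 (28.8%) at day 2, 117 of 236 (49.6%) at day 7 and 21 of 56 (37.5%) after reversal. At 2000 UMIs per cell the shares were 0%, 17.3%, 29.2% and 28.6%, beside 0% to 6.1% in T cells and 0% to 8.0% in endothelial cells, which should lack the gene. The spread between cells was wide: the highest single cell held 119 UMIs at day 2, 259 at day 7 and 110 after reversal. In the other gates Ccl17 reached 564 CPM in reversed cDC1 cells and stayed at 0 to 99.5 CPM in macrophages.

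**Figure D3:**
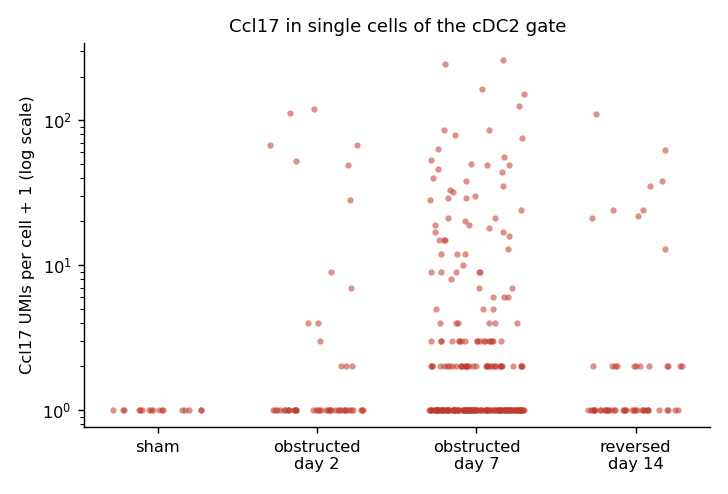
Ccl17 UMIs plus 1 (log axis) in each single cell of the cDC2 gate, by library; points are spread sideways for visibility. All 17 sham cells are at 0 UMIs, while single cells reach 259 UMIs at day 7.

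Cells with Ccl17 at equal depth also differed in other genes, a split made after the values were seen and given without a test. At day 7, Ccl22, a chemokine for the same receptor, was 47.3 CPM in cells with Ccl17 and 14.8 CPM in cells without it. After reversal the values were 156 and 15.8 CPM. Mgl2 was 1751 against 1149 CPM at day 7 and 1706 against 748 CPM after reversal. The inhibitory receptor gene Klrd1 went the other way, with 236 against 374 CPM at day 7 and 219 against 300 CPM after reversal, as did Flt3 with 19.8 against 39.4 CPM and 21.2 against 52.7 CPM.

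Across many genes, the sums per library and gate were compared with the library as a block, using edgeR's quasi-likelihood test with Benjamini-Hochberg adjustment over 6903 genes and an adjusted p under 0.05. The replicates are the libraries, 3 for cDC1 and monocytes and 4 for macrophages. Since each pools 3 mice of a different time point, these tests ask for differences between cell classes that hold across time. Genes used by a gate count in the totals but are not findings. Against cDC1, 491 genes were higher in cDC2 (7.11%) and 414 lower (6.00%). With scaling to total UMIs in place of TMM factors the split was 644 higher and 327 lower. Against macrophages 630 were higher (9.13%) and 663 lower (9.60%), and against monocytes 451 were higher (6.53%) and 561 lower (8.13%). These counts rested on single libraries. Without the day 7 library they were 322 and 226, 355 and 338, and 219 and 317 in the same order, and without the reversed library 303 and 259, 415 and 381, and 301 and 390. In the same direction against all 3 gates were 67 higher genes (0.971%), Cd209a itself among them, and 33 lower genes (0.478%).

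Among the genes higher against all 3 gates, chosen here after their values were seen, the fatty acid receptor gene Ffar2 (chr7:30818348-30823775) had the largest value when each gene was taken at the smallest of its 3 fold changes (log2 5.78, against monocytes). It had at most 2 UMIs per library in cDC1 and at most 1 in monocytes, so its fitted size and this rank depend on the prior count. Its level was 10.8 CPM in sham, 81.6 at day 2, 113 at day 7 and 63.4 after reversal, and 0 to 1.99 CPM in the other gates. The fitted log2 fold change was 5.94 ± 0.45 (SE) against cDC1, with an adjusted p of 4.2e-09 by edgeR. Klrd1 (chr6:129591782-129598775), the CD94 chain of lectin receptors best known from natural killer cells, was 423, 395, 331 and 278 CPM. It was 16.7 to 45.2 CPM in cDC1, 0 to 9.38 CPM in macrophages and 17.9 to 57.6 CPM in monocytes, with log2 fold changes of 3.61, 5.48 and 3.15. The other natural killer markers Ncr1, Klrb1c, Gzma and Klre1 summed to 0 to 25.5 CPM in the gated cells.

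Other genes that passed against all 3 gates included surface receptors and signalling genes. The collagen receptor gene Ddr1 had log2 fold changes of 3.12, 3.06 and 3.09 against cDC1, macrophages and monocytes. Cd200r1, an inhibitory receptor, had 2.62, 2.18 and 3.39, and Tnfsf9, the 4-1BB ligand, had 3.77, 2.12 and 2.24. Bhlhe40, a transcription factor of activated immune cells, had 2.74, 2.92 and 2.54. Itgax, which encodes CD11c, had 1.30, 1.15 and 3.66, and its level was even, at 141, 176, 180 and 184 CPM over the 4 libraries. These 5 genes, with Ffar2, Klrd1, Mgl2 and the lower genes Irf8, Gpr65 and Mpeg1, passed all 3 contrasts whichever library was left out. Of the 66 higher genes other than Cd209a, 26 did so, and of the 33 lower genes 6 did. Without the day 7 library, 31 genes were higher and 15 lower against all 3 gates, and 16 were lower without the reversed library.

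**Figure D4:**
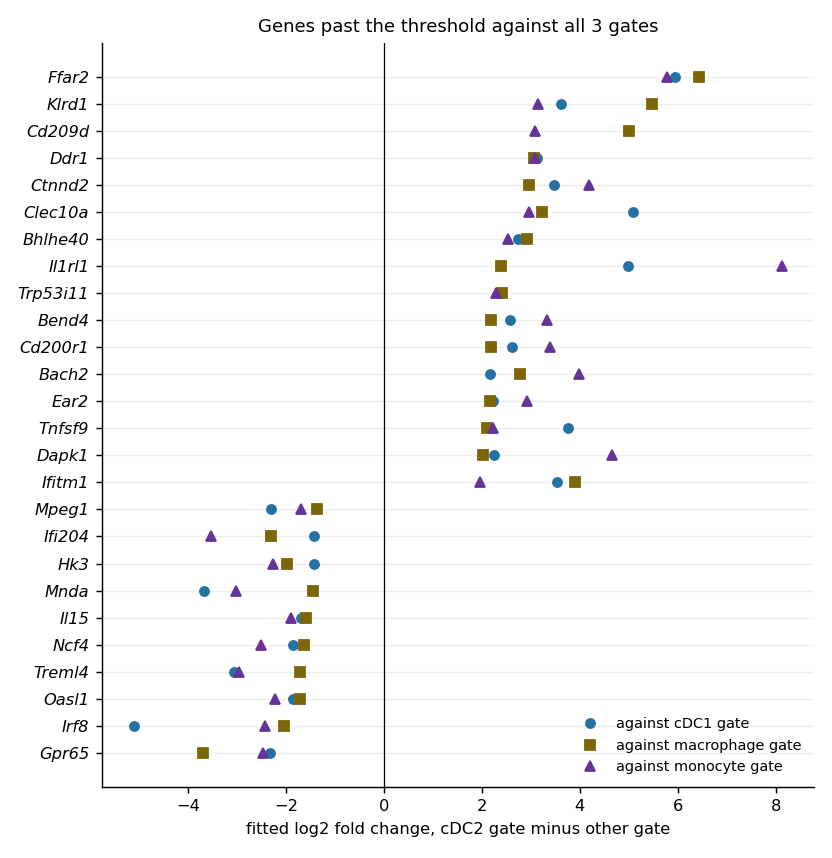
Fitted log2 fold changes of the cDC2 gate against the cDC1 (circles), macrophage (squares) and monocyte (triangles) gates, for the 16 higher and 10 lower genes whose smallest of the 3 fold changes was largest; values above 0 are higher in cDC2. Ffar2 lies near 6 in all 3 contrasts and Irf8 at -5.09 against cDC1, and the point of Il1rl1 against monocytes depends on the prior count because the gene was at 0 there.

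Many of the 16 dendritic transcription factors differed between the gates. Against cDC1, 6 were higher and 4 lower in cDC2; against macrophages 8 were higher and 2 lower; against monocytes 5 were higher and 2 lower. Over all genes, as given above, the shares in the same order were 7.11% and 6.00%, 9.13% and 9.60%, and 6.53% and 8.13%. Against cDC1, 3 were higher without the day 2 library and 4 without any other; against macrophages 5 were higher without the day 7 library. Against monocytes 5 to 6 were higher as each library was left out. The list's median log2 fold changes were 0.49, 0.68 and 0.78, beside 0.00, -0.03 and -0.00 over all genes tested. Irf4 (chr13:30749226-30766976) was 54.2, 9.1, 22.6 and 36.5 CPM in cDC2 cells, and its log2 fold change against cDC1 was 5.44 ± 0.82 (SE). In cDC1 cells it was 0 to 0.806 CPM, from 1 UMI in all, so the fitted size depends on the prior count. Against monocytes Irf4 had 1.82 with an adjusted p of 0.0419 by edgeR, which became 0.185 without the reversed library.

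Irf8 (chr8:120736358-120756694) differed the other way, with 21.7, 56.2, 73.6 and 90.3 CPM in cDC2 cells. It was 1897 to 2379 CPM in cDC1 and 180 to 433 CPM in macrophages, and the log2 fold changes were -5.09 ± 0.32, -2.04 ± 0.29 and -2.42 ± 0.32 (SE). Zbtb46, a factor restricted to conventional dendritic cells among myeloid cells, was 25.0 to 32.5 CPM in cDC2 and 0 to 3.61 CPM in macrophages (log2 3.15 ± 0.36, SE). Against cDC1 it did not pass (log2 -0.67, adjusted p 0.21 by edgeR). Bcl11a was 4.83 higher on the log2 scale than in macrophages, and Ciita, the master regulator of MHC II transcription, 1.06 higher than in macrophages and 2.57 higher than in monocytes. Zeb2, required for cDC2 development, was 1.60 higher than in cDC1 on the log2 scale, and Id2 and Batf3, which serve cDC1, differed from cDC1 by -1.94 and -1.17.

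Among growth factor and cytokine receptors, Flt3 and Csf1r separated cDC2 cells from macrophages in opposite directions. Flt3 was 130, 59.8, 33.2 and 44.2 CPM in cDC2 and 0 to 2.98 CPM in macrophages, with a log2 fold change of 4.09 ± 0.30 (SE). It was 1.78 lower on the log2 scale than in cDC1, where it was 125 to 151 CPM. Csf1r was lower than in macrophages by a log2 fold change of -2.09 ± 0.21 and than in monocytes by -1.38 ± 0.23 (SE). Of 14 receptors of this kind, 4 were higher and 6 lower than in macrophages, 3 higher and 1 lower than in cDC1, and 1 higher and 4 lower than in monocytes. Over all genes the shares were 9.13% and 9.60%, 7.11% and 6.00%, and 6.53% and 8.13% in that order, so the single receptor lower than in cDC1 and the single one higher than in monocytes were near the background. The decoy receptor gene Il1r2 was higher than in cDC1 (log2 3.18) and macrophages (2.41). Ccr2, the receptor used by monocytes to leave blood, was 535 to 976 CPM in cDC2 and passed none of the 3 contrasts (log2 0.27, 0.19 and -0.78).

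Among lectins and pattern receptors, 17 genes could be tested, and 8 were higher than in cDC1, beside 7.11% of all genes. Against macrophages 3 were higher and 10 lower, beside 9.13% and 9.60%, and the 10 became 3 without the reversed library. Against monocytes 5 were higher and 5 lower, beside 6.53% and 8.13%. Mgl2 was higher against each gate (log2 3.03, 1.11 and 5.50), as was Cd209d (4.99, 5.00 and 3.09), a copy of Cd209a at chr8:3871824-3878555 with 0 to 42.2 CPM. In cDC1 cells Cd209d was at 0 at day 2 and after reversal, so its fitted size there depends on the prior count. The other gates hold no Cd209a by the rule, and reads of the 2 copies may be shared. The part of this in the Cd209d difference was not tested. The mannose receptor gene Mrc1 was 2.01 higher on the log2 scale than in cDC1 and differed from macrophages by -1.47. Tlr7, a sensor of single-stranded RNA, was 0 to 3.84 CPM and differed from macrophages by -3.32 and from monocytes by -3.42.

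Among antigen processing genes outside the 4 gate genes, the proposed marker H2-DMb2 stood above each other gate, as described, and the DO genes H2-Oa and H2-Ob were higher than in macrophages and monocytes but not than in cDC1. Of 14 genes, H2-DMb2 included, 4 were higher and 2 lower than in cDC1, 5 higher and 3 lower than in macrophages, and 6 higher and 1 lower than in monocytes. Over all genes the shares in that order were 7.11% and 6.00%, 9.13% and 9.60%, and 6.53% and 8.13%. The 2 lower than in cDC1 became 1 without the day 7 library and 1 without the reversed library, and the 1 lower than in monocytes became 0 without the reversed library and 2 without the sham library. H2-DMb1 (chr17:34153072-34160230) was 1355, 1288, 976 and 1008 CPM in cDC2 and 949 to 1318 CPM in cDC1. Its difference did not pass against cDC1 (log2 -0.19 ± 0.34, SE, adjusted p 0.84 by edgeR) or macrophages (0.33 ± 0.32, SE, 0.58). For H2-DMb2 the fitted difference was 1.82 and 4.11 in those contrasts, and the Y boxes of both copies are shown above. H2-Oa, a chain of the DM inhibitor H2-DO, was 488, 279, 216 and 211 CPM against 5.35 to 13.5 CPM in macrophages (log2 4.65 ± 0.40, SE). H2-Ob, its partner, had log2 2.71 against macrophages. Against cDC1, H2-Oa did not pass (log2 0.47, adjusted p 0.53 by edgeR) and H2-Ob was lower (log2 -0.91, adjusted p 0.0107). Ifi30, a thiol reductase of the lysosome, was 1.19 and 1.31 higher on the log2 scale than in cDC1 and macrophages. Tap1, which feeds the class I route, was lower than in cDC1 (-1.40).

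Of 12 costimulatory and checkpoint genes, 4 were higher and 2 lower than in cDC1, 5 higher and 3 lower than in macrophages, and 4 higher and 2 lower than in monocytes, beside 7.11% and 6.00%, 9.13% and 9.60%, and 6.53% and 8.13% of all genes. The 5 higher than in macrophages became 2 without the day 7 library and 2 without the reversed library, and the 2 lower than in cDC1 became 1 without the day 7 library. Tnfsf9 was 32.5, 158, 78.9 and 179 CPM. Cd83 and Icosl were 2.60 and 2.29 higher on the log2 scale than in monocytes. Cd86 had log2 -1.73 against cDC1, with an adjusted p of 0.0095 by edgeR that became 0.100 without the day 7 library. Of 9 cytokine genes, 4 were higher and 2 lower than in cDC1, and 2 higher and 2 lower than in macrophages. Against monocytes 1 was higher and 3 were lower, beside the same shares of all genes. Leaving out each library gave 2 to 4 higher and 0 to 2 lower than in cDC1, and 0 to 3 lower than in macrophages. Against monocytes it gave 0 higher and 2 to 3 lower. Il1b was 260, 725, 695 and 993 CPM and higher than in cDC1 (log2 2.37 ± 0.22, SE) and macrophages (0.84 ± 0.19, SE). Ltb, a lymphotoxin chain, was higher than both (2.48 and 2.44), and Il15 was lower than in each of the 3 gates (-1.69, -1.59 and -1.89). Where leaving out a library gave 0 lower cytokine genes, Il15 too did not pass against cDC1 or against macrophages. Of 15 chemokine genes, 2 were higher and 1 lower than in cDC1, 1 higher and 4 lower than in macrophages, and 1 higher and 2 lower than in monocytes. Apart from the 4 lower than in macrophages, these counts were of 1 or 2 genes and are not read as a difference from the shares over all genes just given. Leaving out each library gave 0 to 3 higher than in cDC1, 0 to 2 higher and 2 to 4 lower than in macrophages, and 0 to 2 lower than in monocytes, with the lowest of each range reached without the reversed library. Cxcl16 was lower than in cDC1 and macrophages (-1.07 and -2.13).

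The 10 largest increases against each gate, by the rule for named genes, added further names. Against cDC1 they were Ffar2, Irf4, Bex6, Clec10a, Cd209d, Il1rl1, Fcor, Cd7, Tnip3 and S100a4, with log2 fold changes from 5.94 down to 4.60; S100a4 had an adjusted p of 0.126 without the reversed library by edgeR. Il1rl1 (chr1:40429570-40465415) encodes the IL-33 receptor and was 43.4, 5.44, 41.4 and 30.7 CPM in cDC2, with 0 to 1.39 CPM in cDC1. The largest decreases included Gcsam (-6.98), Ttc39a, Snx22, Itgae (-5.42), Cxcr3 (-5.33), Tlr3 (-5.11), Irf8, Dnase1l3 and Clnk. Itgae, the CD103 integrin chain, and Tlr3, a sensor of double-stranded RNA, are known cDC1 genes. All 6 cDC1 markers outside the gate were lower in cDC2, beside 6.00% of all genes. The gates were themselves set on cDC1 markers, and a gene can meet the filter on counts through the gate where it is high. This count is therefore not read as a result.

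Against macrophages the increases were Ffar2, Klrd1, Siglecg, Bcl11a, H2-Oa, P2ry10, Fcor, H2-DMb2, Flt3 and Ffar4, with log2 fold changes from 6.44 to 3.98. The decreases were Lilra5 (-4.56), Ccl12, Ch25h (-4.42), Apoe (-4.39), Ms4a7, C5ar1, C5ar2, Tmem119, Hpgds and Zmynd15. Without the reversed library Apoe had an adjusted p of 0.175, C5ar1 0.110, Ccl12 0.0957 and Ms4a7 0.0781 by edgeR. Against monocytes the decreases were Cd177 (0 in cDC2 and 26.2 to 57.8 CPM in monocytes), Chil3 (-7.79), Mmp8, Vcan (-6.31), Hp, Fpr2, Gzma, Prtn3, Slpi and Serpinb10. Chil3 had an adjusted p of 0.121 without the day 7 library, and Slpi 0.0849 without the day 2 library. The monocyte gate also carried markers of other cells. The 5 neutrophil markers summed to 6873, 2206 and 1689 CPM in it at day 2, day 7 and after reversal, against 163, 256 and 152 CPM in cDC2. The 4 natural killer markers, Gzma among them, summed to 410, 332 and 241 CPM against 10.9, 25.5 and 15.4 CPM. Of these, 4 neutrophil and 2 natural killer markers could be tested, and each was lower in cDC2 than in this gate, beside 8.13% of all genes. A gene can meet the filter on counts through the gate where it is high, so these counts are not read as a result. Cd177 and Mmp8 are known neutrophil genes, and the part of such cells in these decreases was not tested.

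The increases against monocytes were Klrb1b, Sept3, Il1rl1, Casc5, Gpr82, Nccrp1, Ffar4, Wdr86, H2-Ob and Mki67. They are given without a fold, because all but H2-Ob and Mki67 were at 0 in monocytes and a fitted value there depends on the prior count. Klrb1b was 57.6 to 86.7 CPM in cDC2 cells and 0 in the monocytes of every library. Mki67, a marker of dividing cells, was 0, 59.8, 52.0 and 63.4 CPM in cDC2 and 0 to 1.75 CPM in monocytes, and its adjusted p was 0.0568 without the day 7 library by edgeR. In that setting Sept3 had 0.0588, Il1rl1 0.0721 and Wdr86 0.312.

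Cell cycle genes as a list showed the same contrast. Of 17 genes, 11 were higher than in monocytes, beside 6.53% of all genes, with a median log2 fold change of 3.27. The 11 became 5 without the day 7 library, 6 without the reversed library and 14 without the day 2 library. The median was -0.21 against cDC1 and -0.05 against macrophages, where 2 genes were higher, beside 9.13% of all genes. Those 2 became 0 without the day 7 library, 1 without the reversed library and 6 without the day 2 library. Dividing cells were counted as those with at least 2 UMIs over 10 mitotic genes, a rule set after seeing the data. They were 0 of 17 in sham, 14 of 52 (26.9%) at day 2, 55 of 236 (23.3%) at day 7 and 11 of 56 (19.6%) after reversal. At 2000 UMIs per cell the shares were 0%, 15.4%, 8.05% and 8.93%, beside 9.52%, 15.0% and 14.3% in cDC1 from day 2 on. In macrophages they were 27.3%, 6.00% and 3.00% from day 2 on, in T cells 3.92%, 11.5% and 6.87%, and in endothelial cells 0.251% to 1.37% over the 4 libraries. At day 2 the macrophage share was above that of cDC2, and their intervals (19.6 to 36.1 and 6.88 to 28.1) overlapped. The 15 sham cells deep enough for thinning allow a share of up to 20%.

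Between time points, genes with at least 30 UMIs over both libraries were compared as log2 ratios of CPM plus 1, which understates changes of low genes, with exact conditional binomial 95% intervals. Past 2-fold at day 2 against sham were 16.8% of 2716 genes higher and 4.68% lower. For day 7 against day 2 the values were 9.31% and 1.96% of 7054 genes, for reversed against day 7 they were 1.68% and 4.79% of 7084 genes, and for reversed against sham they were 16.3% and 4.48% of 2677 genes. The medians over all genes were 0.22, 0.08, -0.05 and 0.16. Because the filter sums 2 libraries of unequal depth, a gene meets it more easily through the deeper one, and in each of the 4 comparisons the larger share lay on the deeper library's side. No direction is read from these splits. With 92249 sham UMIs, small differences from sham were not detectable at this depth. In summed cells, a different mix of cells within the gate and a change per cell cannot be told apart.

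Genes absent from the 17 sham cells and present at day 2 were led by Ccl17 and Ifitm1. Ifitm1, an interferon-inducible membrane protein, was 0, 910, 320 and 69.1 CPM, at least 28.0-fold over the sham floor at day 2, and was found in 33 of 52 day 2 cells. Cd7, a surface protein of lymphocytes and some dendritic precursors, was 0, 270, 69.3 and 74.9 CPM, at least 8.31-fold over the floor, and 1 cell held 47 of its 149 day 2 UMIs. AA467197 followed with 0, 268, 170 and 194 CPM, and Clec4n, the Dectin-2 gene, with 0, 185, 192 and 71.1 CPM. The dividing-cell genes Hist1h2ap, Cenpa and Birc5 completed the list. Within the gates Ifitm1 was also higher in cDC2 than in cDC1 and macrophages (log2 3.54 and 3.90).

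Lower at day 2 than in sham were Ccl2, Hpgd, Rtp4, Cd33, Mpeg1, Slamf7, Ogt and Clec4b1. Ccl2 rests on few cells, since 30 of its 31 sham UMIs were in 2 cells. Clec4b1, a lectin of the Dcar family, was 726, 212, 358 and 313 CPM, a log2 ratio of -1.77 (-2.21 to -1.32). Mpeg1, the pore-forming perforin-2, was 314, 76.2, 164 and 171 CPM, a ratio of -2.03 (-2.74 to -1.30), and it was also lower in cDC2 than in each other gate (log2 -2.31, -1.37 and -1.68). Slamf7 was 401, 103, 188 and 221 CPM. After reversal Cd72 was 157 CPM against 509 CPM in sham, and the heat shock gene Hspa1a 313 against 1474 CPM, in the library order 1474, 880, 543 and 313. The genes higher after reversal than in sham included Ccl17, AA467197, Bcl2a1a (0 and 136 CPM), Tbc1d4 and the dividing-cell genes Hist1h2ap and Top2a. The other genes lower than in sham were Ccl2, Rtp4, R3hdm4, Clec4a1, Oasl2 and Cited2.

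At day 7 against day 2, Ear2 had the narrowest interval among the increases by the rule, 498 against 58.0 CPM (log2 3.08, 2.58 to 3.62) in 132 of 236 cells, and it stayed at 505 CPM after reversal. Its ratio was of similar size in macrophages (2.98, 2.40 to 3.62), and it was 2.02 (0.96 to 3.28) in cDC1 and 3.63, with a lower bound of 0.30, in T cells. Ear2 encodes an eosinophil-associated ribonuclease. Lum, Retnla, Fcrls, Cxcl9, Asgr2, Sept3 and Ptafr were the other increases by the rule. Lum came from 1 day 7 cell that held 101 of its 113 UMIs, with 757 Col3a1 UMIs, 2 Cd209a UMIs and 87 MHC II UMIs. Col3a1 was among the genes higher against all 3 gates, and without that cell and the Jchain-high cell described below its log2 fold change against macrophages was -1.85. Lower at day 7 than at day 2 were, among others, Cd7, Tsc22d3, Fam129b, Tk1, Gng10, Emp1 and Ccl3. Cd7 differed by -1.95 (-2.29 to -1.61) and Ccl3, an inflammatory chemokine, was 21.7, 513, 167 and 76.8 CPM.

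After reversal against day 7, the plasma cell genes Jchain and Mzb1 had the highest log2 ratios among the increases by the rule (7.08 and 6.15), followed by Tnfrsf4 (3.55) and Txndc5 (2.13), but 812 of 817 reversed Jchain UMIs were in 1 cell. That cell also held 4883 Igkc and 1916 Ighm UMIs beside 34 of Cd209a, and 0 of H2-DMb2. Without it and the Col3a1-high cell the Jchain ratio was -0.08. Tnfrsf4 rested on another single cell with 28 of 32 UMIs. Rrm2, Hist1h2ap, Nr4a2 and Skint3 were the remaining increases. Decreases were Cxcl9, Lum, Ifitm1, Sept3, Ms4a6d, Fcgr1, Clec4n and Oas1a. Cxcl9, an interferon-gamma-induced chemokine for Cxcr3, was 0, 5.44, 62.1 and 0 CPM in cDC2 cells, while in cDC1 cells it was 24.3, 168 and 351 CPM from day 2 on. Clec4n was lower after reversal by a log2 ratio of -1.42 (-1.94 to -0.94) and Fcgr1 by -1.44 (-2.18 to -0.78).

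The 16 interferon response genes mostly had ratios above 0 at day 7 against day 2 and below 0 for reversed against day 7. At day 7 against day 2 all 16 ratios were above 0, 10 were past 2-fold, beside 9.31% of all genes, and 11 intervals lay above 0. The list's median was 1.19, beside 0.08 over all genes, and it was 1.79 in cDC1, 1.99 in macrophages and 1.99 in T cells. After reversal against day 7, 15 of 16 ratios were below 0, 12 were past 2-fold, beside 4.79% of all genes, and 11 intervals lay below 0. All 16 genes met the filter in both comparisons, but some did so mainly through day 7, the deeper library in each. The counts of the first comparison are therefore not read as a rise, nor those of the second as a fall. The median was -1.62 in cDC2, -0.74 in cDC1, -0.49 in macrophages and -0.59 in T cells, beside -0.05 over all genes in cDC2. With 1 library per time point, the difference between the gates was not tested.

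Gbp2, a guanylate-binding protein, was 43.4, 3.63, 65.0 and 11.5 CPM. Ifit3 was 119, 10.9, 54.4 and 15.4 CPM, and Irf7, a factor that amplifies interferon production, 75.9, 38.1, 95.8 and 25.0 CPM. The sham value of Gbp2 rests on 4 UMIs. Ifit3 and Irf7 also rest on few sham UMIs. In each of these 3 genes, picked from the list after their values were seen, sham and day 7 were high and day 2 and reversed UUO low. This order is not read for the list. Rsad2 was the exception after reversal, at 48.0 against 26.9 CPM, with 16 of 25 reversed UMIs in 1 cell. Between gates, 4 interferon genes were lower in cDC2 than in cDC1, 3 than in macrophages and 6 than in monocytes, beside 6.00%, 9.60% and 8.13% of all genes. Without the day 2 library the counts were 6, 8 and 7. Without the reversed library they were 1, 2 and 5, and without the sham library 1, 4 and 5.

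**Figure D5:**
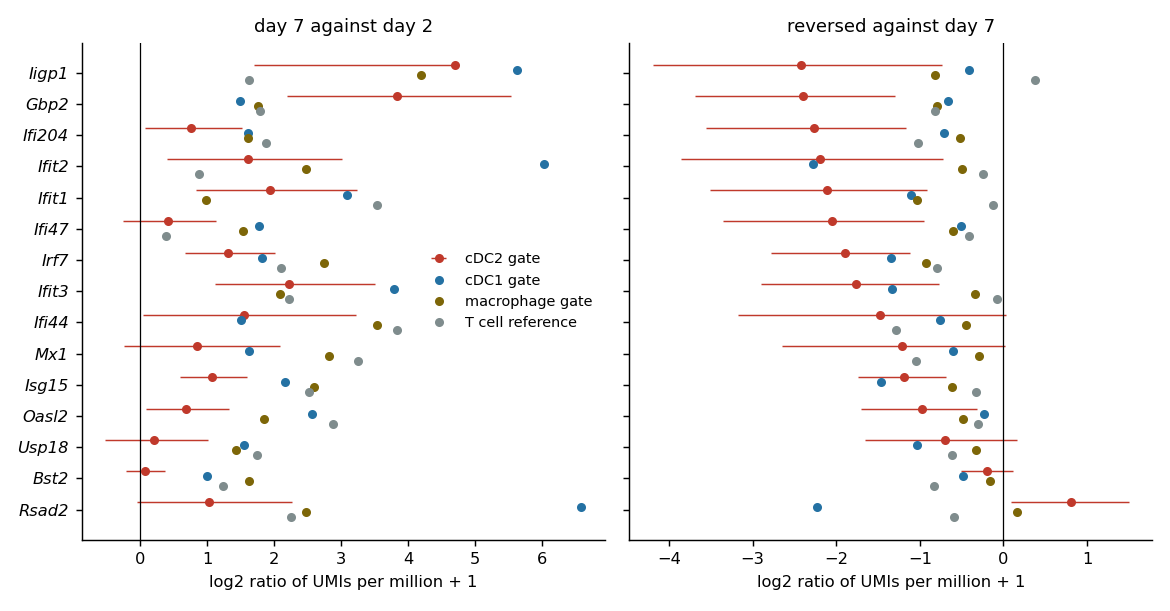
Log2 ratios of CPM plus 1 for 15 interferon response genes, at day 7 against day 2 (left) and reversed against day 7 (right), in the cDC2 gate, the cDC1 and macrophage gates and T cells; bars are exact 95% intervals of the cDC2 ratios, which cover counting error only. All 15 cDC2 points lie above 0 on the left, and 14 of 15 lie below 0 on the right, with Rsad2 at 0.81.

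Of 14 antigen processing genes outside the gate, 11 had ratios below 0 at day 2 against sham. Past 2-fold, 2 were lower and 0 higher, beside 4.68% and 16.8% of all genes, and the list's median was -0.30 beside 0.22. The class I genes carried intervals below 0: H2-D1 was 3122, 1578, 2270 and 2107 CPM (log2 -0.98, -1.18 to -0.79), H2-K1 1041, 582, 988 and 810 CPM, and B2m 3697, 2840, 3360 and 3092 CPM. H2-DMb2 stayed nearly level (log2 0.01, -0.41 to 0.45). H2-Oa was -0.80 (-1.29 to -0.29) against sham at day 2.

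Of 16 chemokine genes, 9 met the filter for day 2 against sham, which a gene does mainly through the deeper day 2 library, so nothing is read from the 6 past 2-fold higher beside 16.8% of all genes. Ccl4 was 130, 945, 421 and 503 CPM. For reversed against day 7, 15 met the filter, some of them only through the deeper day 7 library, so the 7 past 2-fold lower, beside 4.79% of all genes, are not read as a result either. Among them Ccl8 was 130 CPM at day 7 and 13.4 CPM after reversal (270 and 7 UMIs), Ccl12 98.7 and 1.92 CPM (205 and 1 UMIs) and Ccl7 52.5 and 5.76 CPM (109 and 3 UMIs). In day 7 macrophages the same genes stood at 337, 1090 and 300 CPM. Without the members that held 20 or more C1q UMIs, a choice made after seeing the data, 4 of 14 were past 2-fold lower. There were 29 such members at day 7, 2 after reversal and 0 earlier. At day 7 they had Apoe at 7584 CPM against 1981 CPM in the others, and H2-DMb2 at 208 against 618 CPM.

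Of 12 immediate-early genes, 10 had ratios above 0 for reversed against day 7, with 9 intervals above 0 and a median of 0.49 beside -0.05 over all genes. Past 2-fold higher were 2, beside 1.68% of all genes. Egr1 was 43.4, 49.0, 65.4 and 234 CPM, Fos 130, 225, 238 and 519 CPM and Nfkbia 141, 473, 440 and 782 CPM, all highest after reversal. Hspa1a and Hspa1b were the exceptions. The list's median in the same comparison was 0.59 in cDC1, 1.04 in macrophages and 0.61 in T cells. Within time points, 9 of 12 of these genes were higher in cDC2 than in cDC1, beside 7.11% of all genes, with a median log2 fold change of 1.44, and 7 to 10 were as each library was left out. Against macrophages 2 were higher and 1 lower, beside 9.13% and 9.60% of all genes, with a median of 0.24. As each library was left out, 1 to 2 were higher and 1 to 2 lower. Against monocytes 0 were higher and 1 lower, beside 6.53% and 8.13%, with a median of -0.02. These small counts are not read as a difference from all genes.

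Markers of other cells were summed in the gated cells of each library in the order sham, day 2, day 7 and reversed. The 8 macrophage markers summed to 369, 386, 4903 and 1277 CPM, with Mertk at 0 at day 2 and after reversal. The 5 fibroblast markers summed to 0, 5.44, 872 and 23.0 CPM, and proximal tubule markers to 3697, 152, 300 and 995 CPM. Much of the fibroblast sum at day 7 came from the Col3a1-high cell, which held 757 Col3a1, 291 Col1a1 and 304 Dcn UMIs. B cell markers summed to 12.5 to 21.7 CPM, T cell markers to 12.7 to 69.1 CPM with Cd3e at 0 by the rule, and the mast cell and basophil markers to 0 to 2.41 CPM. The monocyte markers summed to 1085 to 1306 CPM, with Vcan at 0 in all but the day 7 library. The part of these sums in the ratios above was not tested.

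In the Smart-seq2 wells, which the droplet gate did not use, 54 wells with at least 10 Cd209a reads were set beside 117 other MHC II-high wells without Cd209a. Wells are not replicates, so no test was made. The Cd209a wells were deeper, with a median of 458119.5 reads and 3852 genes against 387647 reads and 3504 genes, and detection shares were not matched for depth. Of 65 matched genes higher against all 3 droplet gates, 55 were higher in the Cd209a wells, beside 46.2% of 6710 genes tested. Of 32 lower genes, 24 were lower, beside 53.3%. The wells without Cd209a were a single group that also had under 10 reads of Xcr1 and Clec9a. These counts therefore do not compare the Cd209a wells with each of the 3 gates. H2-DMb2 was detected in 64.8% of Cd209a wells and 23.9% of the others, and Klrd1 in 64.8% and 4.27%. Both were higher in the Cd209a wells on 7 of 7 plates with at least 3 wells of each kind. Irf4 was detected in 51.9% and 21.4% of wells and Cd7 in 48.1% and 7.69%, whereas H2-DMb1 was in 100% and 98.3%. Irf8 was 115 against 383 CPM of reads and lower on 7 of 7 plates. Apoe and C1qa were detected in 100% of both kinds of wells.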

How the data were processed

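For each of 4 droplet libraries the authors deposited a matrix of unnormalized UMI counts, and for Smart-seq2 a table of read counts by gene and well. Per the submitters' processing notes the tools include Cell Ranger and STAR with the builds GRCm38 and mm10; versions are not given in the sources used here. The files list 28692 gene identifiers. Cells were gated on raw counts. The cDC1 gate needed at least 2 UMIs of Xcr1 and Clec9a, the macrophage gate at least 20 of C1qa, C1qb and C1qc, each with MHC II as for cDC2, and the monocyte gate at least 3 of Ly6c2 with C1q under 20; all had Cd209a at 0. Sums per library and gate of at least 10 cells were fitted with edgeR 4.0.16 (R 4.3.3; TMM, filterByExpr, robust quasi-likelihood, library block), and the procedure was tested on simulated data. Doublets were not removed in the main analysis. Scrublet (scanpy 1.11.5) gave an alternative that took out 13 gated cells. DESeq2 1.42.0 was another alternative.

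Named genes are the 4 markers, genes of fixed lists, the 10 largest increases and decreases per class contrast with 1 sign in every library, and the 8 per time comparison with at least 50 CPM, an interval without 0 and at least 2 times the level of kept MHC II-low cells. Gate, mitochondrial, ribosomal, haemoglobin, immunoglobulin and predicted genes were left out. Members and lists were chosen with earlier results of these data known. Alternatives without C1q-high members or without the 1 Jchain-high and 1 Col3a1-high member were chosen after seeing the data. Of 21 lectin genes 19 were used. Droplet depth was 18649637 to 30462683 UMIs per library. All libraries pool mice, and each is a different time point. With the library as a block, p-values measure how far differences between gates varied from library to library. They measure no spread between mice or between pools of the same time point. Python 3.11.15 with numpy 2.4.6, scipy 1.17.1 and pandas 2.3.3 was used. Sequences are from RefSeq, gene positions from GENCODE on GRCm38. Some gate and list genes entered every count but are not reported here.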

Additional observations from a re-analysis of the deposited data

Results flagged for a closer look

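For 10 gene ratios the cDC2 and macrophage gates differed by at least 2-fold in opposite directions in the same comparison of libraries. With 1 library per time point, none of these differences between gates was tested. Values are log2 ratios of UMIs per 1000000 plus 1.

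At day 2 against sham, Apoe, a lipid carrier abundant in macrophages, was 2.82 in cDC2 (2 sham UMIs) and -1.91 in macrophages. Clec12a, an inhibitory lectin, was -1.50 in cDC2 and 1.26 in macrophages. Ccl2, a chemokine for monocytes, was -4.14 in cDC2, where 31 sham UMIs came from 3 cells, while macrophages had 0 sham UMIs and 1244 at day 2. In the other comparisons Ccl2 was 1.21 in cDC2 and -1.21 in macrophages at day 7 against day 2, and -2.67 in cDC2 for reversed against sham, with 660 UMIs in reversed macrophages.

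At day 7 against day 2, Cd7 was -1.95 in cDC2 and 1.60 in macrophages, where it rested on 1 UMI at day 2. Ube2c, a gene for a mitotic ubiquitin-conjugating enzyme, was 1.99 in cDC2 and -2.40 in macrophages. For reversed against day 7, Ccl3 was -1.11 in cDC2 and 1.11 in macrophages, and Jchain was 7.08 in cDC2, from 1 cell, and -1.28 in macrophages. For reversed against sham, Hspa1a was -2.23 in cDC2 and 2.17 in macrophages, which held 10 sham UMIs.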

How the results depend on the processing

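No paired analysis was possible between time points because each has 1 library; the contrasts between gates had the library as a block. The shares moved with the gate and the filter on cells. With Cd209a at 1 UMI or more they were 10.1% of kept and 16.7% of MHC II-high cells at day 7, and 2.53% and 12.2% after reversal. Day 7 gave 4.65% and 7.67% with Cd209a at 3 UMIs or more and also without C1q-high members, 9.91% of MHC II-high cells at 100 MHC II UMIs, and 6.66% and 12.0% with cells thinned to 2000 UMIs and both thresholds lowered, to 1 Cd209a UMI and 20 MHC II UMIs. At 20% mitochondrial UMIs the shares of kept cells were 2.31% (sham), 3.30% (day 2) and 2.70% (reversed).

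Genes past the threshold numbered 905, 1293 and 1012 against cDC1, macrophages and monocytes. Without the library block they were 485, 629 and 523, and leaving out each library gave 548 to 931, 693 to 1557 and 536 to 1019. Genes higher against all 3 gates were 31 without the block and 31 to 69 with each library left out, and lower genes 12 and 15 to 34. The causes were not tested; fewer libraries leave fewer degrees of freedom.

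The percentages past 2-fold either way, with the 4 time comparisons in the order of the report, were 12.9%, 5.95%, 2.84% and 12.5% at 100 UMIs, and 57.2%, 22.2%, 18.6% and 58.1% without the filter. A pseudocount of 10 gave 4.24% and 2.44% for day 7 against day 2 and reversed against day 7.

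Some gene values reversed. Without the Jchain-high and Col3a1-high cells, chosen after seeing the data, Col1a1 was -0.84 against cDC1 and -0.30 against monocytes, Col1a2 -0.045 and -0.87, Col3a1 -1.85 against macrophages and -0.029 against monocytes, and the reversed against day 7 ratio of Jchain -0.080. With doublets left out Jchain was -0.0042 and Txndc5 -0.070. With Cd209a at 3 UMIs or more Col3a1 was -2.02 against macrophages and -0.15 against monocytes, and Col1a2 -0.79 against monocytes. The 12 reversed values are these. Of the other values for named genes, 6960 kept their side of the threshold (contrasts between gates) or stayed within their counting interval (time ratios). Another 638 values of contrasts lost the threshold, and 85 time ratios left their interval.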
